A study of Mus musculus with 27 samples.

Results

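The change in gene expression from gestation day 8 (dpc8) to gestation day 16 (dpc16) was examined in zone 1, the zone of the liver lobule around the portal vein. The comparison used the 3 dpc16 and the 3 dpc8 libraries of zone 1 and the genes with at least 1 FPKM (fragments of a gene scaled by transcript length and by the mapped fragments of the library) in at least 3 of these 6 libraries, which were 11381 of the 21823 genes in the deposited table. Of the genes compared, 9694 reached 1 FPKM in all 6 libraries, 27 reached it only in dpc16 libraries and 124 only in dpc8 libraries, so that these could enter only through the group in which they were high.

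The study followed the maternal liver of the mouse through pregnancy, and its 27 libraries came from zones 1, 2 and 3 of non-pregnant (NP), dpc8 and dpc16 livers, with 3 libraries in each group. All animals were female and wild type (WT), of the C57BL/6 strain per the labels and of the C57BL/6N line per the study's methods. Each zone was cut from liver cryosections by laser microdissection, a method that takes every cell within the outlined area and not hepatocytes alone, and the RNA was sequenced after removal of ribosomal RNA. The study's methods describe young adult virgin females and repeats in different mice in general, but the labels tie no library to an age or an animal, so the p-values measure the spread between these libraries.

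Zone 1 hepatocytes meet blood rich in oxygen and nutrients, and are known for urea synthesis, gluconeogenesis, fatty acid oxidation and the secretion of plasma proteins, whereas the pericentral hepatocytes of zone 3 are known for glutamine synthesis, bile acid synthesis and drug metabolism by cytochrome P450 enzymes. During rodent pregnancy the liver grows, first through a phase of hepatocyte division, and is exposed to rising prolactin, placental lactogens, growth hormone, sex steroids and glucocorticoids. Prolactin and growth hormone act through cytokine-type receptors coupled to the kinase JAK2 and the transcription factor STAT5.

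The libraries were compared before the genes. The total FPKM was 519848 to 614272 in the dpc8 libraries and 876877 to 988500 in the dpc16 libraries, and albumin (Alb) alone held 6.48 to 10.7% of it at dpc8 and 17.3 to 20.6% at dpc16. The depth, estimated from the step between low FPKM values, was 11.2 to 23.5 M mapped reads at dpc8 and 7.53 to 11.7 M at dpc16. The summed FPKM of 15 endothelial markers was 156 to 209 at dpc8 and 324 to 337 at dpc16, and that of 20 connective tissue and smooth muscle markers was 881 to 4854 at dpc8 and 534 to 987 at dpc16. In bulk tissue, fewer cells of a type and less RNA per cell cannot be told apart.

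The library of dpc8 replicate 1 stood apart. The sum of 4 Y-linked genes was 20.5 FPKM in it and 0 to 2.97 FPKM in the other 5 libraries, although the label of every animal was female. Acta2, the actin of smooth muscle, was at 1219 FPKM in it and at 0.307 to 143 FPKM in the others, and the mean of the connective tissue markers was 5.69 on the log2 scale against 2.17 to 3.88. List counts without this library are given beside those that it changed most. Replicate 1 of NP zone 1, whose values are given beside some genes, also stood apart, with a connective tissue mean of 5.95 and 15.4 FPKM of Y-linked genes. The zone label was checked with the marker lists of both ends of the lobule. The mean of log2(FPKM + 1) over 18 periportal markers was 7.74 to 8.43 in the 6 zone 1 libraries and 3.32 to 5.38 in the 6 zone 3 libraries of the same stages, and that over 17 pericentral markers was 3.58 to 4.31 and 6.70 to 7.78. Within zone 1 the pericentral mean was 4.12, 4.31 and 4.13 at dpc8 and 3.63, 3.71 and 3.58 at dpc16, with no overlap.

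By limma on log2(FPKM + 1), fitted over all 27 libraries, 273 genes differed between dpc16 and dpc8 at a Benjamini-Hochberg adjusted p under 0.05, which is 2.4% of the genes compared. Of these, 173 rose (1.52%) and 100 fell (0.879%), while 1614 genes had an unadjusted p under 0.05. All 3 values of a group lay beyond all 3 of the other in 270 of the 273, and in 20.2% of all genes compared. Among the called genes, 60 rose and 45 fell by more than 2 on the log2 scale, and the median change of all genes was -0.02. Of the 173 that rose, 16 reached 1 FPKM at dpc16 only, and of the 100 that fell, 31 at dpc8 only. Without dpc8 replicate 1, 158 genes were called, 85 higher and 73 lower.

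**Figure D1:**
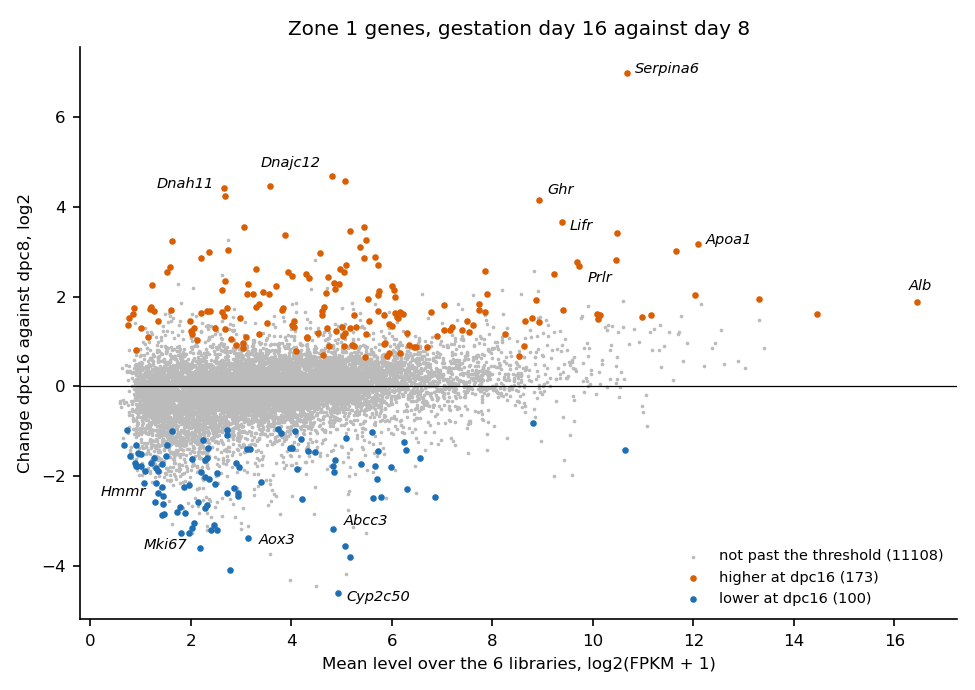
Each point is a gene of zone 1, with its mean over the 6 libraries on the log2(FPKM + 1) scale on the horizontal axis and its log2 change from dpc8 to dpc16 on the vertical axis. Serpina6 stands alone at 6.98, the called genes that rose reach up to the most abundant transcripts such as Alb, and the called genes that fell reach down to -4.60 for Cyp2c50.

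The gene lists were chosen with earlier results of these data known, so counts of their members beside the share of all genes are a description. Of 43 mitosis genes tested, 21 fell and none rose, beside 0.879% of all genes that fell, and without dpc8 replicate 1 the count was 5. Of the hormone axis, plasma carrier and Serpina lists, 4 of 29, 7 of 27 and 6 of 13 members rose, beside 1.52% of all genes, and without dpc8 replicate 1 these counts were 3, 2 and 1. Leaving out all 6 libraries with over 5 FPKM of Y-linked genes, dpc8 replicate 1 among them, gave the same medians for these lists as without that library alone. More members were then called, with 29 mitosis genes lower and 5, 14 and 8 members of the other lists higher. Serpina6 was raised 128-fold and Ghr, the growth hormone receptor, 18.1-fold in mean FPKM. Of 51 cytochrome P450 genes 4 fell and 2 rose, of 45 conjugating enzymes 3 fell and 1 rose, and of 32 bile acid genes 2 fell, with list medians of -0.13, -0.19 and -0.18.

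Mitosis requires the cyclin B and CDK1 kinase, the kinases PLK1 and Aurora B, a spindle of microtubules moved by kinesins, and the proteins of the kinetochore. Many of the genes that code for them are known to be transcribed together late in the cell cycle, through promoter elements called CHR (cell cycle genes homology region) and CCAAT box. Promoter windows of RefSeq (GRCm38.p6, 250 bases before to 50 after each start) were held for 37 of the 43 members of the mitosis list, with 40 windows in all. On either strand, TTTGAA, the core of the CHR, was in 75% of these windows and in 17.9% of all 32851 windows, and CCAAT was in 80.0% against 37.4%. Both were in 67.5% of the windows of the list, in 6.95% of all windows and in 4.81% of the windows of genes compared. The 5 members that fell and that hold both within the last 150 bases before the start are shown, 5′ to 3′ and toward the start, so that the shared letters can be seen beside the shared fall. Capitals mark TTTGAA and CCAAT, or TTCAAA and ATTGG where the match was on the opposite strand.
Mki67, chr7:135716380-135716529, minus strand: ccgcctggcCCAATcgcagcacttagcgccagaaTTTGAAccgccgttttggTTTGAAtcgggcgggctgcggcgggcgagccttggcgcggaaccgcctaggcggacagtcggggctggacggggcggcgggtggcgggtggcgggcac
Top2a, chr11:99024190-99024339, minus strand: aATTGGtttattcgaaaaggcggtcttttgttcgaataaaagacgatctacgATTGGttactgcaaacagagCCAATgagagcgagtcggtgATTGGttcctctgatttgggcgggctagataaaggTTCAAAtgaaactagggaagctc
Ect2, chr3:27153879-27154028, minus strand: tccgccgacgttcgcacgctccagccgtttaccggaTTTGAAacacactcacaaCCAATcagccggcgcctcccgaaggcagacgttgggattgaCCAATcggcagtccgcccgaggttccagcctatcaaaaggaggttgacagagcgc
Ckap2l, chr2:129297213-129297362, minus strand: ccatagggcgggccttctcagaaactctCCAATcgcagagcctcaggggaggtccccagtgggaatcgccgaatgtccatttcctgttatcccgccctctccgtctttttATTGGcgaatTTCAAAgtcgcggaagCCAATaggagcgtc
Kif11, chr19:37376232-37376381, plus strand: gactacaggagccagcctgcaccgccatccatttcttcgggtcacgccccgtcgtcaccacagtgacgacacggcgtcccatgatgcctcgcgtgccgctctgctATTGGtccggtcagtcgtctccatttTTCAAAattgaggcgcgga
These matches describe the letters only and do not show that a factor was bound there. TTCNNNGAA, the palindrome that STAT proteins are known to bind, was in 8.43% of the 178 windows of genes that rose, in 12.5% of the 96 windows of genes that fell, in 6.84% of the windows of genes compared and in 8.30% of all windows.

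Mki67, the proliferation antigen Ki67, whose promoter is printed first, was at 22.9, 10.4 and 14.1 FPKM in the dpc8 libraries and at 0.0876, 0.709 and 1.82 FPKM in the dpc16 libraries. The groups did not overlap, and the log2 change was -3.20 ± 0.62 (SE, n = 3 and 3, limma adjusted p = 0.00634). In NP zone 1 it was at 4.09, 1.46 and 0.565 FPKM, so that the dpc8 libraries were the high ones. Hmmr, the hyaluronan-mediated motility receptor, which also binds the mitotic spindle, was at 7.81, 3.26 and 5.86 FPKM at dpc8 and at 0, 0.0719 and 0.486 FPKM at dpc16. Each dpc8 library again lay above each dpc16 library, and Hmmr fell by 2.45 ± 0.48 on the log2 scale (limma adjusted p = 0.00778). Hmmr reached 1 FPKM at dpc8 only, so it entered only through the group in which it was high and these values are a description. Ccnb2, cyclin B2, went from 19.2, 6.87 and 7.16 FPKM to 0, 0.0998 and 0.321 FPKM (log2 change -3.27 ± 0.66), and like Hmmr it reached 1 FPKM at dpc8 only.

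The other members of the mitosis list that fell were Birc5, Top2a, Knstrn, Cdca3, Racgap1, Ckap2l, Ccnb1, Plk1, Aurkb, Kif11, Kif4, Nuf2, Incenp, Aspm, Ect2, Sgo1, Nusap1 and Cenpf, with log2 changes of -3.26 for Birc5, the survivin subunit of the chromosomal passenger complex, to -1.50 for Aspm, a spindle pole protein. Knstrn, a protein of kinetochores and spindle, was at 13.6, 10.3 and 9.99 FPKM at dpc8 and at 1.58, 0 and 0.0194 FPKM at dpc16. Nuf2, a kinetochore subunit that holds microtubules, was at 5.88, 4.95 and 4.11 FPKM at dpc8 and listed at 0 in all dpc16 libraries. All 43 members tested had a negative change, with a median of -2.22, and in 40 of them the dpc16 values all lay below the dpc8 values, as in 9.35% of all genes. Of the 43, 19 reached 1 FPKM in dpc8 libraries only, 13 of the called ones among them, and these entered only through the group in which they were high. Of the other 24, 8 fell, with a median of -2.23, and 21 lay below the dpc8 values in every dpc16 library. Ube2c (log2 change -3.60, adjusted p = 0.0779 by limma) and Cdk1 (-3.05, adjusted p = 0.0867), the cyclin-dependent kinase of mitosis, were furthest down among members not past the threshold.

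The mean of log2(FPKM + 1) over the 43 mitosis genes was 3.60, 2.54 and 2.84 in the dpc8 libraries and 0.58, 0.60 and 1.09 in the dpc16 libraries. It was highest in dpc8 replicate 1, the library with the connective tissue markers, and without that library 5 members were called lower with a median change of -2.08, the same count as without dpc16 replicate 2. With the connective tissue markers as a covariate, 22 members were called lower and the median was -1.55. The part of this tissue in the fall was not tested further.

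**Figure D2:**
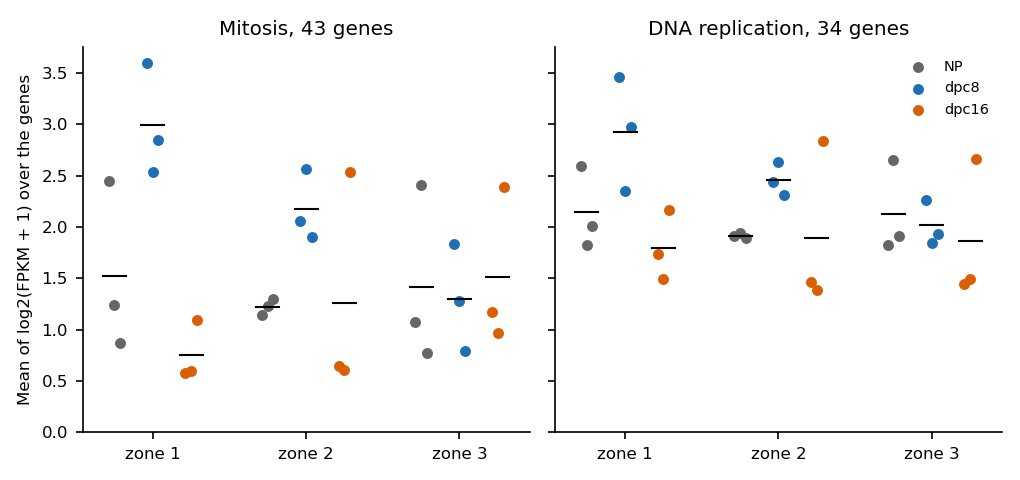
Points are libraries, with the mean of log2(FPKM + 1) over the genes of the mitosis list (left) or the DNA replication list (right) on the vertical axis, by zone and stage, and bars are group means. In zone 1 the dpc8 libraries lie at 2.54 to 3.60 and the dpc16 libraries at 0.58 to 1.09 for mitosis, while replicate 3 of dpc16 lies at 2.54 in zone 2 and at 2.39 in zone 3.

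Genes of DNA replication, such as the MCM helicase and the GINS complex, are switched on before mitosis. None of the 34 tested was called by limma, 19 had an unadjusted p under 0.05, and their median change was -1.09, with 33 negative and 15 below the dpc8 values in every dpc16 library (9.35% of all genes). Gins2 (6.71, 1.502 and 5.12 FPKM at dpc8, and 0.166, 0.115 and 0.0989 FPKM at dpc16) and Mcm6 (15.9, 3.05 and 12.6, then 0.531, 1.65 and 1.96) had the largest changes, with adjusted p of 0.103 and 0.0843. Of 25 histone genes, Hist1h1a and H2afz fell, by 2.44 and 1.59 on the log2 scale, beside 0.879% of all genes, and H2afz, a variant histone, went from 235, 134 and 139.8 FPKM to 77.8, 39.0 and 51.0 FPKM. Replication-dependent histone genes are near-identical copies, and reads that map to several of them were not kept by the authors, so the value of each copy is uncertain. Ccnd1, cyclin D1 of the G1 phase, was the only called member of 19 G1 regulators (0.879% of all genes fell) and went from 78.3, 39.5 and 52.2 FPKM to 12.9, 12.03 and 17.3 FPKM (log2 change -1.89 ± 0.43, limma adjusted p = 0.0193). Without dpc8 replicate 1, 0 histone genes and 0 G1 regulators were called by limma. Cdkn3, a phosphatase of cyclin-dependent kinases outside the mitosis list, was at 7.94, 4.86 and 6.34 FPKM at dpc8 and listed at 0 in all dpc16 libraries.

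Ghr, the growth hormone receptor (chr15:3317760-3583492, GRCm38), was at 104, 117 and 124 FPKM at dpc8 and at 2391, 1590.2 and 2250.5 FPKM at dpc16. The NP values of 121, 173 and 218 FPKM met the dpc8 range and lay far below the dpc16 libraries, and the rise was 4.15 ± 0.33 on the log2 scale (limma adjusted p = 5.19e-08). Prlr, the prolactin receptor (chr15:10177238-10349180), rose from 318, 325 and 352 FPKM to 2192, 2037 and 2211 FPKM (log2 change 2.69 ± 0.38, adjusted p = 0.000192). Lifr, the receptor of leukaemia inhibitory factor (chr15:7090614-7197489), rose from 299, 142 and 153 FPKM to 2365, 2022 and 2803 FPKM (log2 change 3.66 ± 0.49, adjusted p = 0.000128). For all of these receptors the lowest dpc16 library was above the highest dpc8 library by more than the whole dpc8 range, and the call held in all 18 other fits.

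Igfbp4, a binding protein of insulin-like growth factors, was the remaining called member of the 29 tested in the prolactin, growth hormone and IGF list (4 higher against 1.52% of all genes, 0 lower, median 0.18, and 3 higher without dpc8 replicate 1). It rose from 544, 762 and 667 FPKM to 1803, 1783 and 1977 FPKM (log2 change 1.51 ± 0.39). Igfbp2 (log2 change 2.56, adjusted p = 0.0559) and Igfbp1 (2.05, adjusted p = 0.379) were the furthest up of those not past the threshold. Stat5a (0.04), Stat5b (-0.26), Jak2 (-0.14), Cish (0.18), Socs2 (0.77) and Igf1 (0.35), chosen here as the signal carriers and textbook targets after their values were seen, were not past the threshold either, at limma adjusted p of 0.398 to 0.968.

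Ghr, Lifr and Prlr lie on 1 stretch of chromosome 15. Of the 25 genes compared from the start of Ghr to the end of Prlr (chr15:3317760-10349180, 7.03 megabases), these 3 were the called ones, beside 1.52% of all genes that rose. The log2 changes of the other 22 ran from -2.38 for the complement component C9 to 0.77. The ends of the stretch were set by Ghr and Prlr themselves, so the count was partly fixed in advance and is a description.

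**Figure D3:**
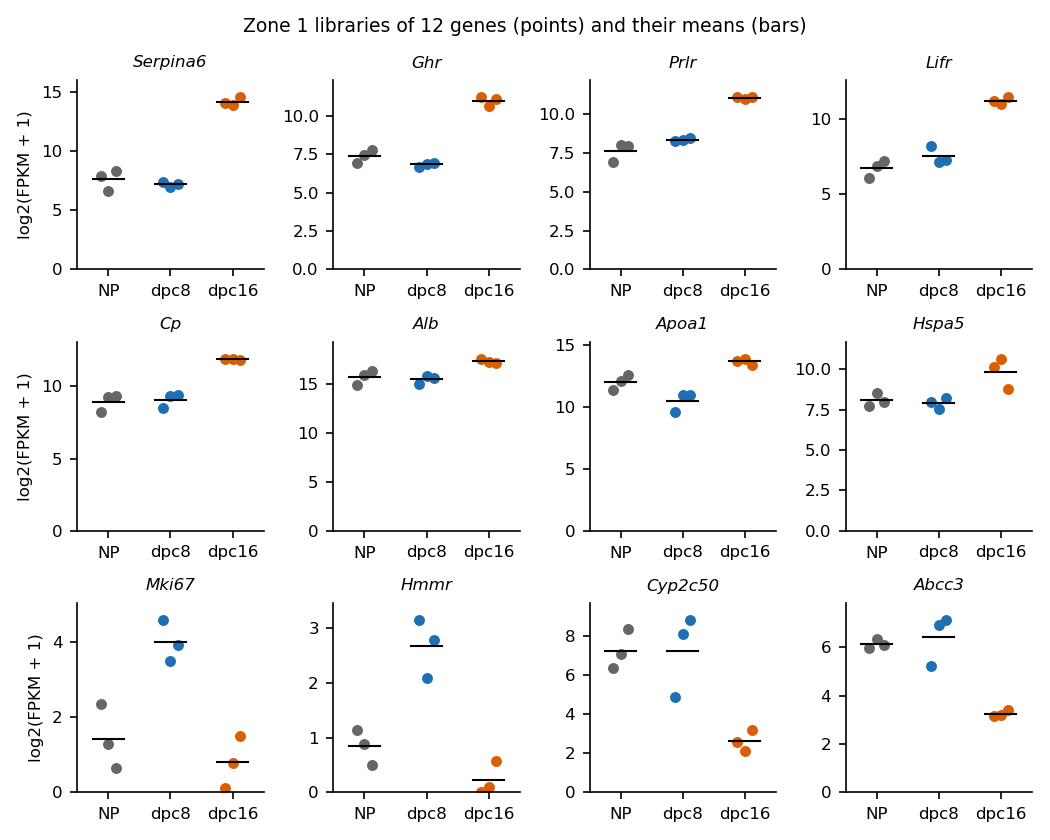
Each panel is a gene, each point a zone 1 library on the log2(FPKM + 1) scale, in grey for NP, blue for dpc8 and orange for dpc16, and bars are group means. In the top row all dpc16 points lie above the NP and dpc8 points, and Mki67 and Hmmr are highest at dpc8, while Cyp2c50 and Abcc3 are low at dpc16 with a wide spread at dpc8.

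Serpina6 codes for corticosteroid-binding globulin, the carrier of glucocorticoids in plasma, and lies at chr12:103646630-103657212. It was at 168, 126 and 144 FPKM at dpc8 and at 16842, 15322 and 24154 FPKM at dpc16, while NP libraries were at 231, 99.6 and 328 FPKM. Its rise of 6.98 ± 0.49 on the log2 scale was the largest of all genes compared (limma adjusted p = 1.36e-08). Hsd11b1, which regenerates active glucocorticoid inside the hepatocyte, rose from 242, 459 and 475 FPKM to 1488, 1067 and 1154 FPKM (log2 change 1.70 ± 0.42, adjusted p = 0.0346). These were the called members of 21 glucocorticoid genes tested (1.52% of all genes rose), which had a median of 0.34, and 1 was called without dpc8 replicate 1. Sgk1, a kinase induced by glucocorticoids, was at 91.3, 30.7 and 14.4 FPKM at dpc8 and at 93.2, 51.3 and 15.6 FPKM at dpc16, so the groups overlapped (log2 change 0.28, adjusted p = 0.895).

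The genes next to Serpina6 code for serine protease inhibitors of the alpha-1 antitrypsin group. From Serpina10 to Serpina3n (chr12:103614786-104414329), 15 genes were compared, of which 8 rose (1.52% of all genes), none fell and 7 were not past the threshold, with changes of 0.02 to 1.33. Serpina1b rose from 1224, 2566 and 2796 FPKM to 8319, 7691 and 9553 FPKM (log2 change 2.04), and Serpina1a, Serpina1d, Serpina1e, Serpina11 and Serpina12 rose by 1.58 to 3.43. Serpina16 was listed at 0 in all NP and dpc8 libraries of zone 1 and was at 7.64, 7.21 and 11.01 FPKM at dpc16, so that it entered only through the group in which it was high and its place among the 8 is no support. The Serpina1 genes are near-identical copies, so their separate values are uncertain. Of the 13 tested in the list of both Serpina clusters, without Serpina6 and Serpina16, 6 rose and all 13 had a positive change (median 1.33), and 10 were above the dpc8 values in every dpc16 library (10.8% of all genes). Of these 13, 1 was called without dpc8 replicate 1 and also without dpc16 replicate 2, and 3 under quantile normalization or upper quartile scaling.

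Of 27 plasma carriers tested, Serpina6 among them, 7 rose and 1 fell (1.52% and 0.879% of all genes), with a median of 0.98 and 19 above the dpc8 values in every dpc16 library (10.8% of all genes), and without dpc8 replicate 1 the calls were 2 and 1. Quantile normalization, which gives genes of equal rank the same value in every library, left 4 that rose and 1 that fell, with a median of 0.17. Cp, ceruloplasmin, the copper carrier and ferroxidase, rose from 354, 629.6 and 678 FPKM to 3821, 3808 and 3649 FPKM (log2 change 2.82 ± 0.41, limma adjusted p = 0.000349). Trf, transferrin, rose from 10496, 13757 and 14926 FPKM to 35749, 38377 and 45419 FPKM, and Ahsg, fetuin-A, from 4039, 5686 and 6032 FPKM to 17748, 20816 and 21296 FPKM. Alb rose from 33701, 60653 and 50468 FPKM to 203747, 163523 and 151511 FPKM (log2 change 1.87 ± 0.49, adjusted p = 0.0432). The groups did not overlap in any of these, and quantile normalization set the change of Alb to 0 and ended the call of Trf. Of the 18 other fits, Alb was not called in 10, Trf in 6 and Ahsg in 2, while the call of Cp held in all. Fetub and Vtn also rose, by 1.43 and 1.54. Lect2, a hepatokine and pericentral marker, fell from 6.89, 9.87 and 21.96 FPKM to 1.21, 0.640 and 0.941 FPKM (log2 change -2.71 ± 0.37).

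Of 27 apolipoprotein and lipoprotein genes 2 rose and 2 fell, beside 1.52% and 0.879% of all genes. Apoa1, the main protein of high-density lipoprotein, was at 785, 1956 and 1995 FPKM at dpc8, under its NP values of 2610, 4434 and 6106 FPKM, and rose to 13501, 15066 and 10844 FPKM at dpc16 (log2 change 3.16 ± 0.51, limma adjusted p = 0.00104). Apoc2, the cofactor of lipoprotein lipase, rose from 227, 339 and 409 FPKM to 2212, 1996 and 2300.3 FPKM. Lipc, hepatic lipase, fell from 76.2, 117 and 133 FPKM to 23.9, 35.4 and 17.6 FPKM (log2 change -2.06), and Apol9b fell by 1.43. Over the 18 other fits, 2 to 7 members rose and 1 to 4 fell, and Apol9b was not called in 6. For Apoa1 and Apoc2 the dpc16 libraries also lay above the NP libraries.

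Of 33 coagulation genes, 5 rose and none fell (median 0.85), beside 1.52% of all genes that rose, and none was called without dpc8 replicate 1. Without all 6 libraries with over 5 FPKM of Y-linked genes, 13 rose. F2, prothrombin, rose from 452, 766 and 797 FPKM to 1852, 1979 and 2109 FPKM, and F5, F7 and F10, factors of the same cascade, rose by 1.46, 1.81 and 1.46 on the log2 scale. Vwf, von Willebrand factor of endothelial cells, rose from 0.913, 1.16 and 2.498 FPKM to 69.3, 54.6 and 5.06 FPKM, and its dpc16 replicate 3 was far below the other dpc16 libraries. All 15 endothelial markers tested had a positive change (median 0.54, beside 48.4% of all genes with one) and Vwf was the called member. Itih4, an acute phase protein, rose from 1017, 1125 and 1269.8 FPKM to 7895, 9986 and 9666 FPKM and was the 1 called of 30 in that list. Of 26 complement genes limma called none, with 4 at an unadjusted p under 0.05 and a median of 0.48.

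**Figure D4:**
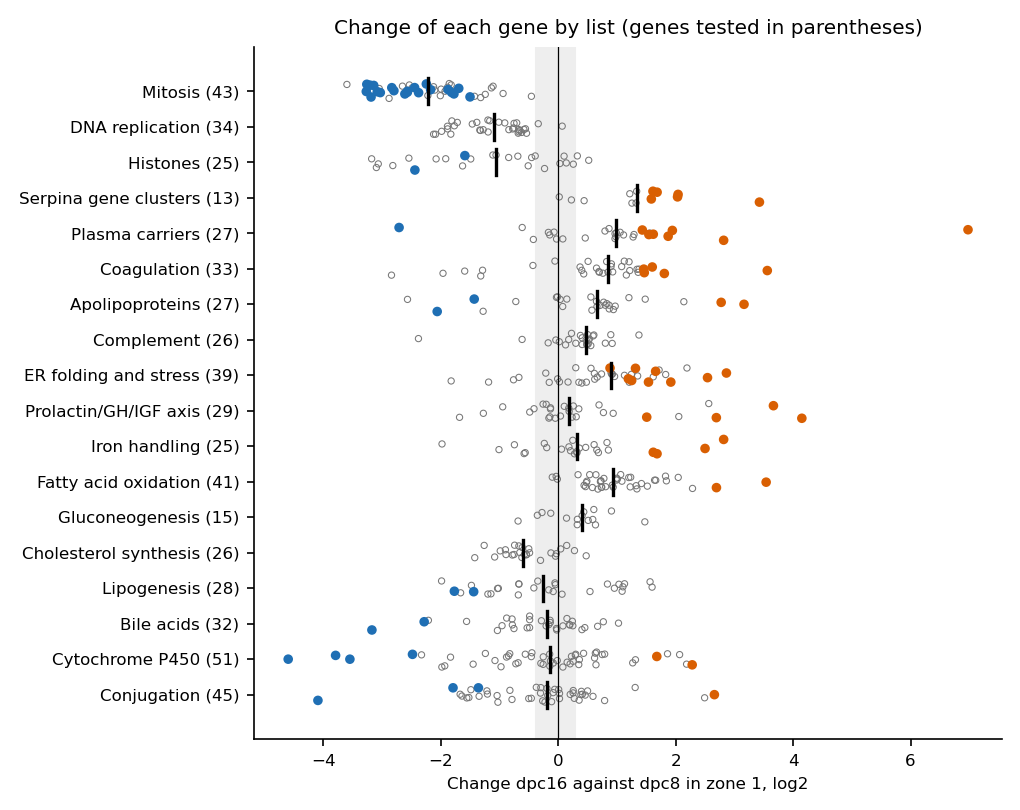
Each point is a gene, placed by its log2 change from dpc8 to dpc16 in zone 1, on a line for each of 18 lists with the number of genes tested, filled orange where called higher, filled blue where called lower and open where not called, with a black bar at the median. The grey band holds the middle 50% of all genes. Mitosis lies wholly to the left with a median of -2.22, the Serpina clusters lie wholly to the right with a median of 1.33, and the P450 list has called genes on both sides of a median of -0.13.

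Secreted proteins are folded in the endoplasmic reticulum, and of 39 genes of its folding and stress response 9 rose and none fell (median 0.90), beside 1.52% of all genes that rose. Hspa5, the chaperone BiP, was at 251, 187 and 296 FPKM at dpc8 and at 1100, 1599.9 and 429 FPKM at dpc16 (log2 change 1.92 ± 0.50, limma adjusted p = 0.0423). Creld2 rose from 18.5, 9.46 and 20.1 FPKM to 119.9, 214 and 62.7 FPKM (log2 change 2.86 ± 0.63), and in both genes dpc16 replicate 2 was the highest and replicate 3 the lowest of the group. Sdf2l1, Hyou1, Dnajb11, Pdia4, Pdia6, Dnajc3 and Sec61a1, a channel through which new proteins enter the organelle, rose by 0.88 to 2.54. Manf was at 1.83 with an adjusted p of 0.0517. Without dpc8 replicate 1, 3 members were called, under quantile normalization or upper quartile scaling 5, and without dpc8 replicate 2 or dpc16 replicate 2 limma called 0. Leaving out all 6 libraries with over 5 FPKM of Y-linked genes gave 17 that rose. Dnajc12, a co-chaperone outside this list, rose from 2.71, 7.70 and 4.13 FPKM to 119.5, 216 and 109 FPKM, the next largest rise after Serpina6 among called genes (log2 change 4.70 ± 0.55).

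Iron handling genes held 4 risers of 25 (1.52% of all genes), with a median of 0.31, and 2 were called without dpc8 replicate 1 or under quantile normalization, and 1 without dpc8 replicate 2, dpc16 replicate 1 or dpc16 replicate 2. Besides Cp and Trf, these were Tfrc, the transferrin receptor, which rose from 19.6, 12.01 and 8.58 FPKM to 64.5, 61.8 and 19.6 FPKM, so that its lowest dpc16 value met its highest dpc8 value, and Hamp2, a copy of the hepcidin gene, which rose from 94.6, 376 and 452 FPKM to 1395, 1079.7 and 1958 FPKM (log2 change 2.499 ± 0.64, limma adjusted p = 0.0402). Hamp, hepcidin, was at 963, 1222 and 2986 FPKM at dpc8 and at 423, 1669.9 and 80.2 FPKM at dpc16, and its groups overlapped. The Hamp genes are close copies, so reads can be shared between them. Alas2, the haem synthesis enzyme of red cell precursors, rose from 2.27, 4.13 and 4.95 FPKM to 18.4, 12.5 and 26.6 FPKM, while the other 5 erythroid markers tested had negative changes.

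Further genes among those with the largest rises were Klk1b4, a kallikrein of a multigene family, Dnah11, an axonemal dynein, Crybb3, a crystallin, Cyp4a31, Crip1, Nedd9, a scaffold of adhesion signalling, and Tmem64. Dnah11 was at 0.00307, 0.380 and 0.817 FPKM at dpc8 and at 40.8, 24.3 and 22.6 FPKM at dpc16. Crybb3 was at 1.06, 0.437 and 0.0794 FPKM at dpc8 and at 23.1, 23.1 and 36.3 FPKM at dpc16, so both were barely measured at dpc8, and Dnah11 entered only through dpc16. Klk1b4 rose by 4.46, Crip1 by 3.47, Nedd9 by 3.37 and Tmem64 by 3.26.

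Cyp2c50, a P450 enzyme of drug metabolism, had the largest fall among called genes and was at 27.7, 265 and 439.8 FPKM at dpc8 and at 4.94, 3.38 and 8.13 FPKM at dpc16 (log2 change -4.60 ± 0.71, limma adjusted p = 0.000711). Cyp2c37 went from 31.2, 241 and 307 FPKM to 14.2, 6.62 and 6.797 FPKM (-3.79 ± 0.59), and Cyp2c69 from 98.3, 97.5 and 156 FPKM to 11.6, 8.72 and 6.85 FPKM (-3.55 ± 0.33). Smim22, a small membrane protein, ranked between these and went from 6.25, 9.60 and 49.96 FPKM to 0, 0 and 1.19 FPKM (-3.60 ± 0.87). The lowest dpc8 value of Cyp2c50 and of Cyp2c37 was that of replicate 1. Cyp1a2, which oxidizes caffeine and oestrogens and is one of the pericentral markers, fell from 33.8, 170.3 and 263 FPKM to 17.0, 14.2 and 31.8 FPKM. All 4 P450 genes were higher in every zone 3 library than in any zone 1 library of the same stage, and in zone 3 Cyp2c50 was at 606, 1143 and 1273 FPKM at dpc8 and at 289, 226 and 196 FPKM at dpc16. The pericentral marker mean was lower at dpc16 in the same zone 1 libraries (3.58 to 3.71 against 4.12 to 4.31), and its part in these falls was not tested. Over 51 P450 genes tested, 4 fell and 2, Cyp3a41a and Cyp2d40, rose by 2.28 and 1.68, with a median of -0.13, beside 0.879% and 1.52% of all genes. Without dpc8 replicate 1 these counts were 6 and 1. The Cyp2c and Cyp3a genes are close copies and their separate values are uncertain.

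Aox3, an aldehyde oxidase, went from 19.5, 32.3 and 32.0 FPKM to 2.57, 0.296 and 3.47 FPKM (log2 change -3.36 ± 0.48, limma adjusted p = 0.000245), and its neighbour in the family, Aox1, fell by 2.07. Gpx1, glutathione peroxidase, went from 2097, 2882 and 2920.4 FPKM to 1081, 745 and 1169.9 FPKM, so that 3 of 29 redox genes fell (0.879% of all genes) and none rose. Gstm3, a glutathione S-transferase of the conjugation list, was at 3.49, 34.7 and 140.2 FPKM at dpc8 and at 0.605, 0.478 and 0.925 FPKM at dpc16 (log2 change -4.09 ± 0.91), with its lowest dpc8 value in replicate 1. The count of redox genes that fell was 4 without dpc8 replicate 1 and 1 without dpc8 replicate 2 or replicate 3, where the calls of Aox1 and Gpx1 were lost. Of 45 conjugating enzymes, Gstm3, Gstm2 and Mgst3 fell and Sult3a2, a sulfotransferase listed at 0, 0 and 0.703 FPKM at dpc8, rose to 10.99, 8.18 and 2.89 FPKM. Gstm3 reached 1 FPKM at dpc8 only and Sult3a2 at dpc16 only, and of the 42 members that reached it at both stages 2 fell and 0 rose by limma. Without dpc8 replicate 1, 5 of this list fell and none rose, and without dpc8 replicate 2 or dpc16 replicate 2 limma called 0.

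Among 32 bile acid genes 2 fell, beside 0.879% of all genes, and both were transporters. Abcc3, which exports conjugated bile acids and glucuronides to the blood, fell from 36.01, 121 and 137 FPKM to 7.79, 8.15 and 9.55 FPKM (log2 change -3.17 ± 0.52, limma adjusted p = 0.0012). Slco1b2, which takes organic anions up from the sinusoid, fell from 119, 214 and 206 FPKM to 39.1, 25.5 and 42.3 FPKM (-2.28 ± 0.38), and both calls held in all 18 other fits. Cyp7a1, the rate-limiting enzyme of bile acid synthesis, was at 23.6, 18.7 and 20.6 FPKM at dpc8 and at 1.35, 2.24 and 12.9 FPKM at dpc16 (-2.21, adjusted p = 0.152). All dpc16 values of these 3 genes lay below the dpc8 values.

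Of 41 genes of fatty acid oxidation and PPAR alpha targets, Cyp4a31, a fatty acid hydroxylase, and Cd36, a fatty acid carrier of the membrane, rose, beside 1.52% of all genes, and 38 had a positive change (median 0.94), beside 48.4% of all genes. Cyp4a31 went from 6.21, 26.9 and 9.28 FPKM to 211, 214 and 70.3 FPKM, and Cd36 from 11.5, 26.6 and 25.5 FPKM to 278, 113 and 76.6 FPKM. Ehhadh, a peroxisomal oxidation enzyme, was at 54.7, 156 and 102 FPKM at dpc8 and at 712, 734 and 119 FPKM at dpc16 (log2 change 2.04, adjusted p = 0.322), and Fgf21, a hormone of fasting, was at 2.29 (adjusted p = 0.339). In these genes dpc16 replicate 3 was the lowest of its group, and without dpc8 replicate 1 no member was called. Leaving out all 6 libraries with over 5 FPKM of Y-linked genes gave 4 that rose. Of 28 lipogenesis genes 2 fell, beside 0.879% of all genes. Me1, malic enzyme, fell from 59.5, 93.7 and 113 FPKM to 33.0, 27.1 and 33.0 FPKM, and Mlxipl, the sugar-sensing factor ChREBP, from 60.5, 167 and 79.6 FPKM to 13.5, 17.4 and 78.0 FPKM, the last of which reached into the dpc8 range. Limma called 0 of this list without dpc8 replicate 2, dpc8 replicate 3, dpc16 replicate 1 or dpc16 replicate 2, and Mlxipl was not called in 11 of the 18 other fits. Elovl6, an elongase, was at -1.99 with an adjusted p of 0.179.

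Glucose metabolism, which the study examined in late pregnancy, held no called gene among 15 of gluconeogenesis (median 0.41), 29 of glycolysis and glucose uptake (-0.21) and 19 of glycogen handling (-0.35) by limma, with 1, 6 and 2 at an unadjusted p under 0.05. Gys2, liver glycogen synthase, was at 100.3, 91.7 and 85.7 FPKM at dpc8 and at 336, 316 and 269.9 FPKM at dpc16, and Gpd1, which links glycerol to glucose, was at 54.5, 142 and 103 FPKM and then at 349, 300.3 and 168 FPKM. Neither passed the threshold (limma adjusted p of 0.139 and 0.198), although the groups did not overlap in either. Of further genes that the study names, H6pd was at 0.90 (adjusted p = 0.336), Slc45a3 at 0.48, Pdk4 at 0.50 and Sgk1 at 0.28, and none passed the threshold. The study reported them from whole liver of virus-injected mice, with and without a cell cycle inhibitor. Its tissue and comparison differ from those used here, so these values do not test its result. Of 26 cholesterol synthesis genes none was called, 2 had an unadjusted p under 0.05 and 22 had a negative change (median -0.59). None of 79 ribosomal protein genes, 81 subunits of oxidative phosphorylation and 38 of the proteasome was called, with medians of 0.00, 0.21 and 0.30. Of these, 1, 6 and 8 had an unadjusted p under 0.05.

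Of 17 amino acid transporters, Slc6a9, a glycine transporter, and Slc43a1, a transporter of large neutral amino acids, rose by 2.24 and 1.83, while Prodh, proline dehydrogenase, fell by 1.76 on the log2 scale as the 1 called gene of 38 of amino acid breakdown. Of all genes 1.52% rose and 0.879% fell, so that 1 of 38 is near the background. Slc6a9 went from 33.9, 40.9 and 16.3 FPKM at dpc8 to 112, 116 and 201 FPKM at dpc16, with no overlap. Rdh9, a retinol and steroid dehydrogenase, was at 0.919, 0.933 and 0.379 FPKM at dpc8 and at 13.6, 14.8 and 7.35 FPKM at dpc16. It entered only through dpc16, and besides it 1 of 22 steroid enzymes, Hsd11b1, was called higher. Of the remaining lists, Egln3 of the hypoxia response and Chordc1 of the heat shock response rose by 1.27 and 1.20, and Gbp3 of the interferon response and Dusp6 of the immediate early response fell by 1.59 and 1.17, each as the 1 called gene of its list. Leaving out 1 zone 1 library at a time gave 0 or 1 called transporter, and of the 18 other fits Slc6a9, Slc43a1 and Prodh were not called in 4 each, Chordc1 in 5, Gbp3 in 6, Dusp6 in 7 and Egln3 in 8.

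Of the 18 periportal markers 1 rose, 1 fell and 16 were not called (median 0.01), and of 14 pericentral markers tested 1 rose, 3 fell and 10 were not called (median -0.66), beside 1.52% of all genes that rose and 0.879% that fell. Without dpc8 replicate 1, 0 periportal markers rose and 1 fell, and 1 pericentral marker rose and 2 fell. Over the 18 other fits, 0 to 4 periportal markers rose and 0 to 3 fell, and 0 to 2 pericentral markers rose and 1 to 5 fell. Rnase4, a secreted ribonuclease of the periportal marker list, fell from 349.9, 295 and 194 FPKM to 53.1, 94.1 and 22.3 FPKM (log2 change -2.46 ± 0.49), and Ang, angiogenin, whose gene overlaps Rnase4 and whose reads may not be separable from it, fell by 2.45. Glul rose from 74.4, 32.0 and 25.7 FPKM to 113, 127 and 145 FPKM (1.67 ± 0.43, limma adjusted p = 0.0409), against 1349 to 3152 FPKM in zone 3 at these stages. It was not called in 7 of the 18 other fits. Aldh1b1, a mitochondrial aldehyde dehydrogenase, rose from 55.2, 129 and 195 FPKM to 342, 332 and 566 FPKM. Cyp17a1, the steroid hydroxylase used as a periportal marker, was at 123, 195 and 263 FPKM at dpc8 and at 933, 753 and 672 FPKM at dpc16, with a change of 2.07 and an adjusted p of 0.0968. Lgr4, a receptor that strengthens Wnt signalling, rose from 16.9, 21.8 and 19.5 FPKM to 41.6, 46.7 and 64.0 FPKM, while Tbx3 (-0.53, adjusted p = 0.676) did not pass the threshold.

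Whether the turn was particular to zone 1 was tested as the difference of the change between zones. No gene differed between zones 1 and 2 (0%) by limma, with 353 genes at an unadjusted p under 0.05 and a smallest adjusted p of 0.606, and 3 genes differed between zones 1 and 3 (0.0264%), with 652 at an unadjusted p under 0.05. Replicate 3 of dpc16 in zone 2 and in zone 3 stood apart, with albumin at 7.98 and 9.59% of the total FPKM against 15.2 to 21.0% in the other 7 dpc16 libraries and connective tissue means of 5.44 and 5.49, and without both libraries 0 genes differed between zones 1 and 2 and 1 between zones 1 and 3. Cdkn3 fell in zone 1 and was at 2.78, 1.31 and 0 FPKM at dpc8 and at 3.42, 1.70 and 2.19 FPKM at dpc16 in zone 3 (difference of the log2 changes -3.57 ± 0.63, adjusted p = 0.0431). Ccdc38, a coiled-coil protein, was at 0.506, 1.40 and 0.667 FPKM at dpc8 and at 13.6, 11.7 and 15.3 FPKM at dpc16 in zone 1, and at most 0.0370 FPKM in every dpc8 and dpc16 library of zone 3 (difference 3.01 ± 0.51). The third was 2210407C18Rik, listed at 0 in all dpc8 libraries of zone 1 and at 2.27, 1.179 and 2.41 FPKM at dpc16, and listed at 0 throughout zone 3 at both stages. In zone 1, Cdkn3 reached 1 FPKM at dpc8 only and 2210407C18Rik at dpc16 only, so that both entered only through the group in which they were high and their values are a description.

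The mitosis genes had a median change of -2.22 in zone 1, -0.96 in zone 2 and 0.27 in zone 3, and for 42 of 43 the change in zone 1 was below that in zone 3, while 50.1% of all genes had a lower change in zone 1 than in zone 3. The genes were admitted on their zone 1 values, 19 of the 43 through dpc8 alone, which favours a fall in zone 1. For the other 24 the medians were -2.23, -0.96 and 0.36, and 23 had the lower change in zone 1. No member passed the test of the difference, with smallest adjusted p of 0.257 against zone 3 and 0.925 against zone 2. Without the dpc16 replicate 3 libraries of zones 2 and 3, the medians there were -1.59 and -0.15. Replicate 2 of dpc8 zone 2 was kept, although it also stood apart, with a connective tissue mean of 5.61 and 16.1 FPKM of Y-linked genes. Its mean over the mitosis genes, 2.57, was the highest of its group, beside 2.06 and 1.91. Serpina6 rose by 5.70 in zone 2 and by 4.73 in zone 3, Ghr by 3.16 and 2.64 and Prlr by 1.83 and 1.70. Their differences from zone 1 were not past the threshold (limma adjusted p of 0.663 to 0.734 against zone 3 and of 0.925 against zone 2).

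**Figure D5:**
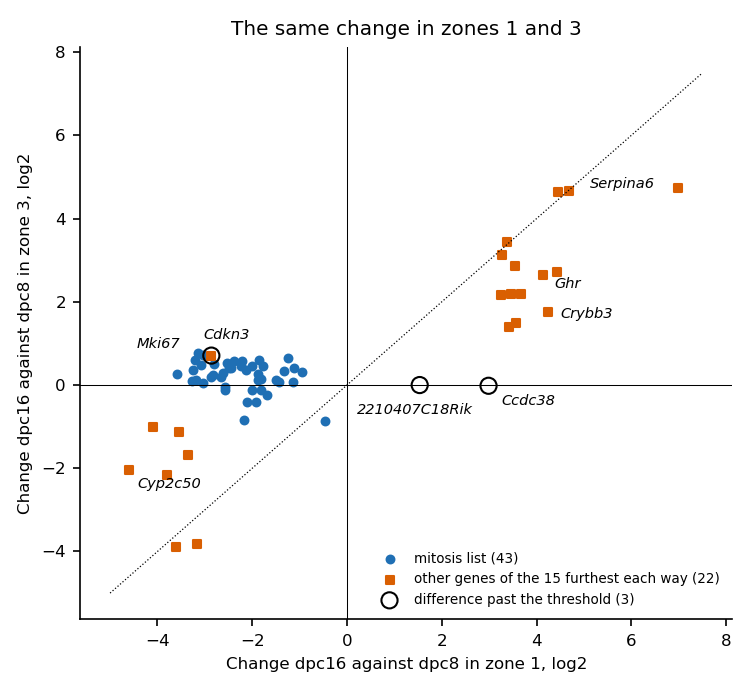
Each point is a gene, with its log2 change from dpc8 to dpc16 in zone 1 on the horizontal axis and in zone 3 on the vertical axis, blue for the 43 mitosis genes and orange for 22 other genes from the 15 largest rises and the 15 largest falls in zone 1, and rings mark the 3 genes whose changes differed by the test. The dotted line is equal change, and because the orange genes were chosen by their zone 1 change, their place to the outer side of the line is not a result. The mitosis genes lie at a median of -2.22 in zone 1 and 0.27 in zone 3.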

How the data were processed

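RNA from laser-microdissected zones 1, 2 and 3 of NP, dpc8 and dpc16 mouse livers was sequenced single-end after ribosomal RNA removal (27 libraries, 3 per group). The authors trimmed the reads (cutadapt), aligned them to mm10 (HISAT2 2.1.0), kept uniquely mapped reads and deposited 1 table of FPKM values per gene made with Cufflinks 2.2.1 and Cuffdiff. Whether counting used strand was not given in the sources used here, so reads of overlapping genes (Rnase4 and Ang, Trf and Gm20425, Hsd11b1 and Lamb3, Cp and Hps3, Apoc2 and Gm44805, Ccdc38 and Snrpf) may be shared. The table holds no read counts. Mapped reads per library were estimated from the step between low FPKM values, and the precision of low genes is limited by that depth.

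Genes with at least 1 FPKM in at least 3 of the 6 zone 1 libraries of dpc8 and dpc16 were compared on log2(FPKM + 1), with a pseudocount of 1, which understates the change of low genes. limma 3.58.1 in R 4.3.3 (trended, robust variance) was fitted to all 27 libraries with 1 mean per stage and zone. All p-values are two-sided and come from limma, and a gene was called at a Benjamini-Hochberg adjusted p under 0.05 over all genes compared. The members and gene lists were chosen with earlier results of these data known. Genes were named by rule: the 15 furthest called genes in each direction whose groups do not overlap, called members of the lists and uncalled members from those with the largest change in each list described, genes that the study names, and genes past the test of a zone difference. Other genes are marked as chosen after their values were seen. The replicate numbers of dpc8 and dpc16 did not pair the libraries (correlations of same-numbered deviations of -0.16, 0.00 and -0.16). The script was tested on simulated data, where 29 of 103 genes with a true log2 change of 1 were called, and 74 of 97 with a change of 2. A gene that was not called may thus still have changed. Coordinates are from the GENCODE annotation of GRCm38, and promoter sequences from RefSeq GRCm38.p6. No batch or date was given in the labels. The 18 other fits changed the pseudocount, filter, weights, scaling, block, covariate or libraries used. Results of some genes are not reported here.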

Additional observations from a re-analysis of the deposited data

Results flagged for a closer look

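The change from dpc8 to dpc16 differed between zone 1 and zone 3 by limma's test of the difference for 3 genes. Ccdc38 had a change higher by 3.01 on the log2 scale in zone 1 (SE 0.51, n = 3 per group, limma adjusted p = 0.0431) and was past the threshold in 11 of the 18 other fits. 2210407C18Rik had a change higher by 1.53 and was past the threshold in 7 of 18, with all its zone 1 dpc8 libraries listed at 0. Cdkn3 had a difference of -3.57 (SE 0.63, limma adjusted p = 0.0431) and was past the threshold in 7 of 18. In zone 1 these 2 genes reached 1 FPKM at 1 stage only, 2210407C18Rik at dpc16 and Cdkn3 at dpc8, so that each was compared only through the group in which it was high. Without replicate 3 of dpc16 in zones 2 and 3, the adjusted p was 0.0267 for Ccdc38 and 0.0869 for each of the others.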

How the results depend on the processing

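The 273 called genes (173 higher, 100 lower) and the 3 that differed between zones 1 and 3 depended on the settings, and the cause was not tested. Array weights gave 966 (527 and 439; 21 between zones 1 and 3), leaving out the 6 libraries with Y-linked FPKM 554 (306 and 248), and leaving out replicate 3 of dpc16 in zones 2 and 3, chosen after seeing the data, 541 (342 and 199; 1 between zones 1 and 3). Fitting only the groups compared gave 170 (109 and 61; 1). The connective tissue covariate gave 195 lower and 187 higher, 49.0% of calls against 63.4% as reported, and 6 between zones 1 and 3. The pseudocount of 0.1 gave 0 there, the filter on all 27 libraries 6, and no filter 6, with 1 between zones 1 and 2. Leaving out 1 library at a time gave 88 to 230 calls (60 to 128 higher, 28 to 102 lower), with 0 to 1 between zones 1 and 3, and 32.2 to 62.6% of the reported genes shared. The fewest came without dpc16 replicate 2. Counts for single libraries were 158 without dpc8 replicate 1, 126 without replicate 2 and 139 without replicate 3, 106 without dpc16 replicate 1 and 230 without replicate 3. The replicate block gave 299 calls (182 and 117), 251 of them among those reported. Of 109 called genes named, 30 were past the threshold in all 18 other fits and 10 were not past it in 10 or more of them. Thbs1 turned to 1.61 with the covariate, and Sgk1 ranged from -0.32 to 0.98 with 1 library left out, with -0.27 without dpc16 replicate 1; neither gene was called. Depth of 7.53 to 11.7 M reads at dpc16 limits genes near 1 FPKM.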
